A study of Mus musculus with 8 samples.

Results

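The 32 genes described here belong to the Wnt pathway of the intestinal crypt or mark the stem cells that the pathway maintains. They were chosen by name from a list of ligands, receptors, transcription factors, targets and stem cell markers, out of 49585 gene identifiers measured in all, and each name matched 1 identifier. RNA from the intestine of 8 C57BL/6 mice was sequenced, with 1 library per mouse. Recipients of Klebsiella (mice 1 to 4, here K1 to K4) were set against recipients of Lactobacillus (mice 1 to 4, here L1 to L4), and both names are those of genera of gut bacteria. All mice were recipients, and no untreated group is among the samples. The sources used here do not give the form and length of the treatment, the age of the mice or the segment of gut taken. They do not say whether mice of a group shared a cage either, so p-values measure the spread between these mice only.

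In the Wnt pathway, secreted Wnt proteins bind Frizzled and LRP receptors, which stops the destruction complex built on Apc and Axin from breaking down β-catenin (Ctnnb1). β-catenin then enters the nucleus and joins transcription factors of the TCF/LEF family, which repress their targets without it and activate them with it. Tcf7l1 is the family member known mainly as a repressor. R-spondins, made by cells around the crypt base, bind Lgr4 and Lgr5 and thereby remove the ubiquitin ligases Rnf43 and Znrf3, which otherwise take Frizzled off the cell surface.

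TCF/LEF factors bind DNA at a short core, searched here in 4 forms on both strands. The first form was CTTTGAA. The next form searched was CTTTGAT. Another form searched was CTTTGTA. The last form searched was CTTTGTT. Matches on opposite strands can overlap, and a window was counted once however many it held. The 250 bases before each gene start in RefSeq (build GRCm38.p6) were searched, and 21 of the 32 genes had 1 or more such windows, 31 in all. A core stood in 3 of those 31 windows (9.68%), against 14.8% of all 32851 windows. Sequences are shown for Tcf7l1, which had the smallest unadjusted p of these genes in limma, and for Axin2, a general Wnt target. They are also shown for Rspo1, the ligand with the largest difference between the groups, and for 2 windows that hold a core. They are given 5′ to 3′ on the gene's strand, in lower case with the core in capitals. Only stretches outside exons of GENCODE M21 are shown, and for the windows with a core only the core and its flanks.
Tcf7l1, chr6:72789255-72789295, minus strand: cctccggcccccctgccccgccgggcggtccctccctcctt
Axin2, chr11:108920099-108920348, plus strand: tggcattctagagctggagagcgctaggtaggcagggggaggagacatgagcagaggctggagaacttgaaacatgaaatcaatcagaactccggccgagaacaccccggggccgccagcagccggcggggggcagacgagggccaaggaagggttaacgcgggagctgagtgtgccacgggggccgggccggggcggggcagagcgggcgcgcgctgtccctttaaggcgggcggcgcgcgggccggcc
Rspo1, chr4:124986180-124986429, plus strand: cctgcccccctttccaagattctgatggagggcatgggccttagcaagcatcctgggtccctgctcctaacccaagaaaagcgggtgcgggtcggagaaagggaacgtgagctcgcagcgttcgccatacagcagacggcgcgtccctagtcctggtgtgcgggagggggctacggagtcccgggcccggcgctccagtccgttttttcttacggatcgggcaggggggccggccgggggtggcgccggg
Tcf7l2, chr19:55895287-55895320, plus strand: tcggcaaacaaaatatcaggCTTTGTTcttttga
Tnfrsf19, chr14:61038163-61038209, minus strand: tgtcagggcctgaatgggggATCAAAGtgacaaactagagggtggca
The core in Tnfrsf19 reads as the reverse complement of the second form listed. The core in Tcf7l2 and the one in Tnfrsf19 lie before starts downstream of the genes' outermost ones. The third window with a core belongs to such a start of Lef1. A match is a stretch of letters, and binding was not measured.

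The libraries held 40455910 to 55447220 reads after the authors' read filter, and the whole reads in genes recovered from the deposited values came to between 15753959 and 21548070. Values are FPKM, reads scaled to the length of the gene and the size of the library. Levels of different genes compare only roughly, since they depend on the gene lengths used, which were not checked. Markers of epithelium were high throughout: the summed FPKM of 7 epithelial markers was 6461 to 8897 in Klebsiella and 5898 to 7962 in Lactobacillus recipients. Some libraries stand apart. Hoxb6, a homeobox gene of gut position, was at 40.2 FPKM in K3 and 45.2 in L2 and at most 3.87 elsewhere. The pancreatic transcript Ctrb1 was at 418 FPKM in K2 and 112 in L3 and at most 2.99 elsewhere. Markers of fat cells, which lie beside the gut, were lower in the Klebsiella libraries: the summed FPKM of 6 adipocyte markers was 21.9, 32.5, 23.3 and 30.4 in K1 to K4 and 51.7, 41.7, 82.03 and 268.7 in L1 to L4. The sums did not overlap, L4 stood far above the rest, and 4 of the 5 tested markers were at an unadjusted p under 0.05 in limma on the lower side, against 3.52% of all genes tested. In bulk tissue, fewer cells of a type cannot be told apart from less RNA per cell.

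Ctnnb1 had the highest mean level of the 32 and Olfm4 the lowest. Ctnnb1 was at 346, 348, 412 and 360.1 FPKM in K1 to K4 and at 350.5, 342, 330.0 and 390.5 in L1 to L4. Olfm4 was at 0.0773, 0.0317, 0 and 0 FPKM in K1 to K4 and at 0.0761, 0.0616, 0 and 0.0348 in L1 to L4, from 0 to 2 reads per library. Olfm4 is a widely used stem cell marker of the small intestine and of human colon, and 3 libraries held no read of it. Its level compares with 3.02 to 8.65 FPKM for Lgr5, the receptor that marks stem cells in both small and large intestine of the mouse. Notum, an enzyme that inactivates Wnt, was at 0.0722 to 0.269 FPKM (2 to 7 reads), and Lef1 at 0.102 to 0.559 FPKM (4 to 27 reads). These 3 genes had a mean under the 0.5 FPKM needed for the test, which left 29 genes tested. 

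**Figure D1:**
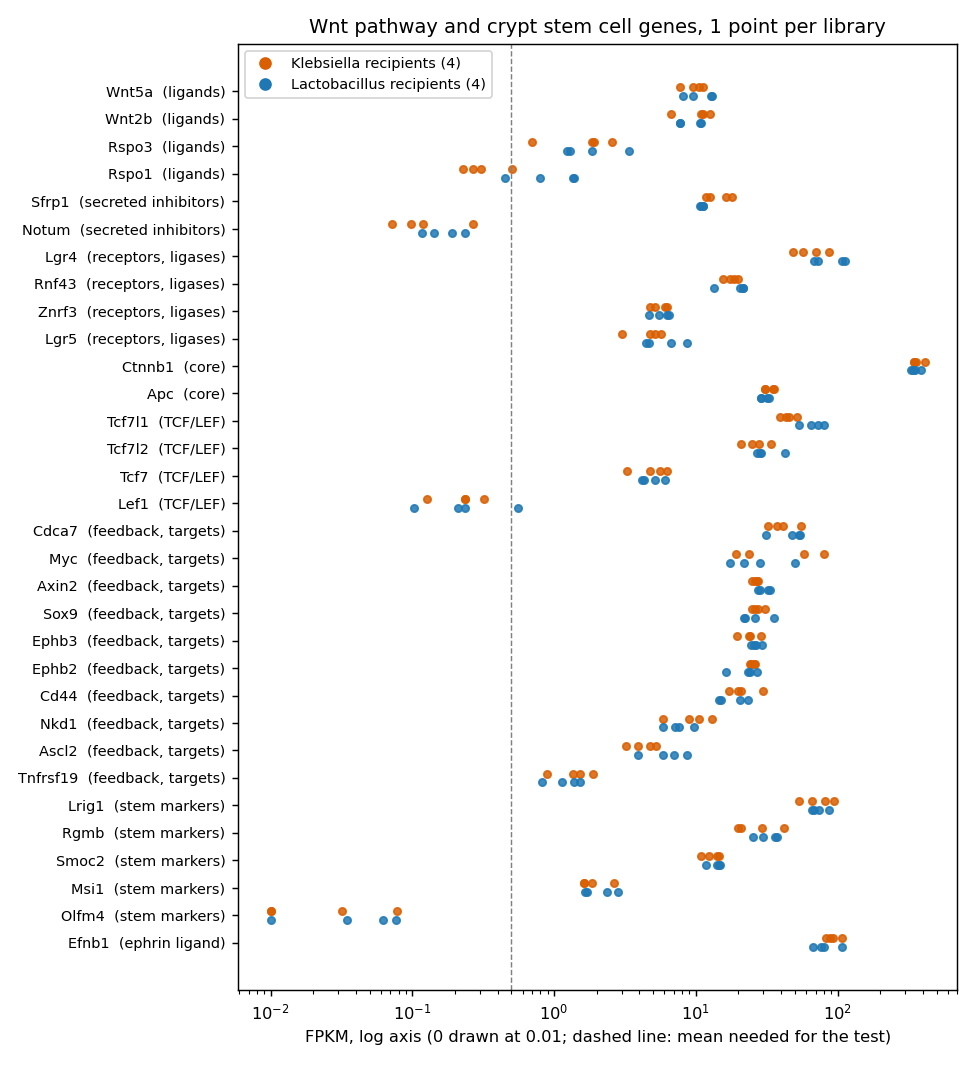
FPKM of each of the 32 genes on a log axis, 1 point per library, Klebsiella recipients in orange and Lactobacillus recipients in blue, ordered by role and mean level. The means of Olfm4, Notum and Lef1 lie left of the dashed line at 0.5 FPKM, and the groups are apart for Tcf7l1 and Sfrp1 only.

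None of the 29 genes differed between the groups past the threshold. Limma on log2(FPKM + 0.5), with Benjamini-Hochberg adjustment over all 16865 genes tested, called 0 genes below the threshold of 0.05 (0.0%), and adjusted p among the 29 ran from 0.774 to 0.998. Voom on recovered reads also called 0 genes, and the counts at an unadjusted p under 0.05 were 1024 with limma and 1045 with voom. At that unadjusted level 3 of the 29 stood out (10.3%, against 6.07% of all genes tested). Sfrp1 was the one on the higher side in Klebsiella recipients (2.55% of all genes tested), and Tcf7l1 and Rspo1 were on the lower side (3.52% of all genes tested). The groups did not overlap for 2 of the 29, Tcf7l1 on the lower and Sfrp1 on the higher side (6.9%, against 2.99% of all genes tested). Of all genes tested, 1.8% lay apart on the lower and 1.19% on the higher side. These shares rest on 2 and 3 genes. The median log2 difference of the 29, Klebsiella minus Lactobacillus, was -0.08, with 11 above 0 and 18 below, and that of all genes tested was -0.02.

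**Figure D2:**
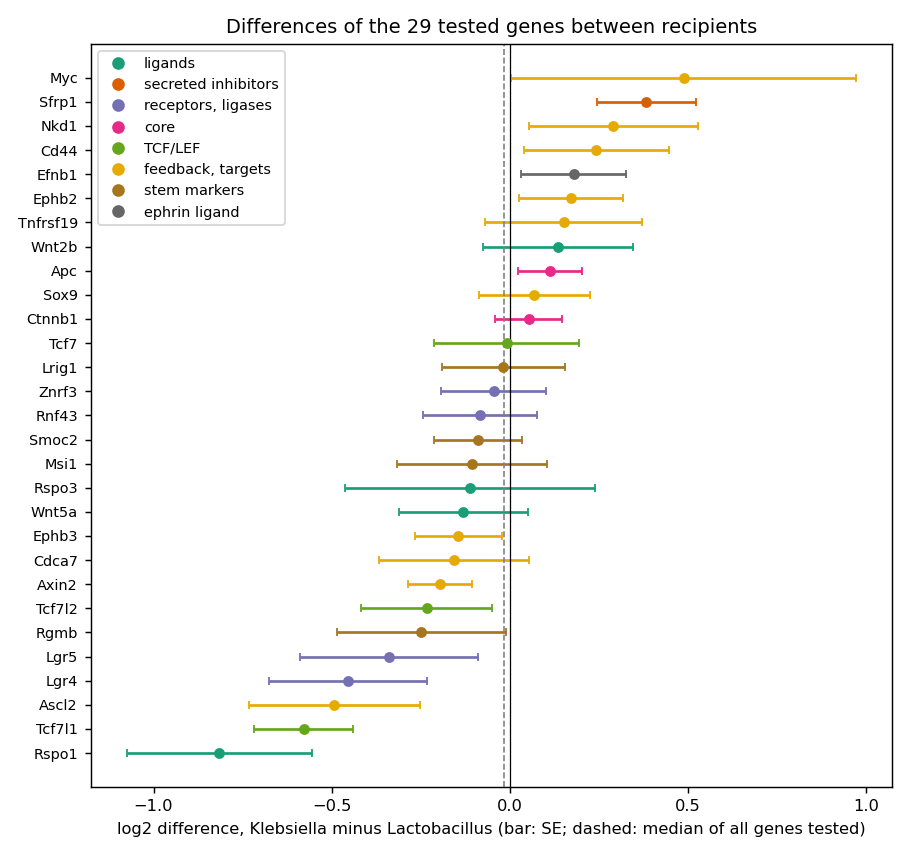
Log2 difference between Klebsiella and Lactobacillus recipients for each tested gene, with its standard error from limma, coloured by role. The points run from -0.82 for Rspo1 to 0.49 for Myc, and no gene passed the threshold.

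Among the ligands, Rspo1 had the largest difference and the fewest reads. This R-spondin was at 0.50, 0.228, 0.269 and 0.303 FPKM in K1 to K4 (5 to 9 reads) and at 1.37, 1.37, 0.447 and 0.800 in L1 to L4 (11 to 31 reads). L1 and L2 were highest, and L3 lay below K1, so the groups overlapped. The log2 difference was -0.82 (SE 0.26, limma unadjusted p 0.0119, adjusted p 0.774) and depended on the pseudocount, being -1.30 with 0.1 and -1.45 with voom. Without K3 and L2, the libraries with high Hoxb6, it was -0.66 (limma unadjusted p 0.0691). The other R-spondin, Rspo3, was at 1.85, 1.92, 2.57 and 0.698 FPKM in K1 to K4 and at 1.23, 1.30, 1.85 and 3.40 in L1 to L4. K4 was lowest and L4 highest, and the log2 difference of -0.11 (SE 0.35) was well within that spread.

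The groups overlapped for both Wnt ligands. Wnt2b, a canonical Wnt made by crypt mesenchyme, had means of 10.3 ± 2.54 FPKM with Klebsiella and 9.25 ± 1.80 FPKM with Lactobacillus (SD, n = 4 each). Wnt5a, a non-canonical Wnt of the mesenchyme, had 9.77 ± 1.53 and 10.8 ± 2.45 FPKM (SD, n = 4 each). The lowest Wnt2b, 6.66 FPKM, and the lowest Wnt5a, 7.74 FPKM, were both in K1. The summed FPKM of 11 crypt mesenchyme markers was 403 to 581 in Klebsiella and 507 to 557 in Lactobacillus recipients, with K4 lowest.

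Of the secreted inhibitors, Sfrp1, which binds Wnt proteins outside the cell, was at 12.6, 16.4, 17.9 and 11.9 FPKM in K1 to K4 and at 10.8, 11.3, 10.6 and 11.2 in L1 to L4. The Lactobacillus libraries lay close together and below all Klebsiella libraries, of which K2 and K3 were highest. The log2 difference was 0.38 (SE 0.14, limma unadjusted p 0.0223, adjusted p 0.774). Without K2 it was 0.33 and without K3 0.29, neither at an unadjusted p under 0.05 in limma. It was 0.17 with log2 Hoxd13, 0.20 with log2 Hoxb13 and 0.32 with the mean of 7 smooth muscle markers as a covariate. The summed FPKM of those muscle markers was 2472, 2880, 3639 and 953 in K1 to K4 and 2368, 1399, 1758 and 2038 in L1 to L4. K2 and K3 were thus high in both Sfrp1 and muscle, while K4, lowest in muscle, still had more Sfrp1 than any Lactobacillus library. The part of muscle content in the difference was not tested beyond that covariate.

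**Figure D3:**
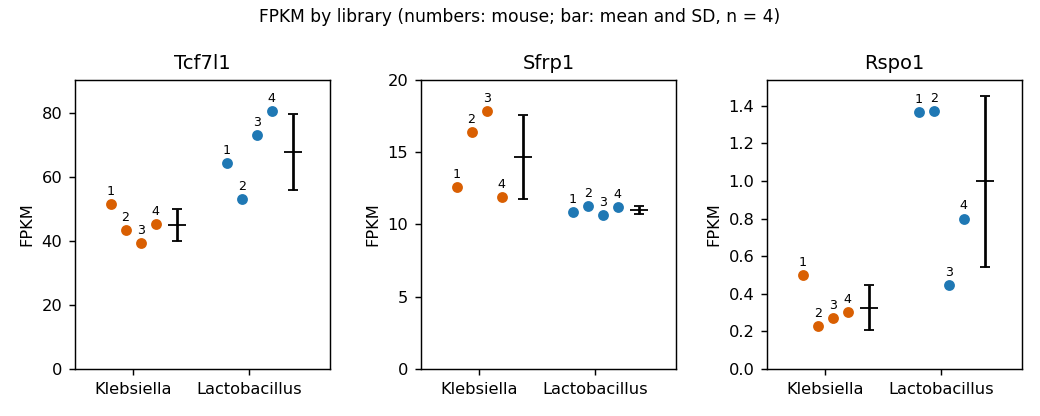
FPKM of Tcf7l1, Sfrp1 and Rspo1 in each library, numbered by mouse, with the mean and SD of each group (n = 4) as a bar. All Klebsiella libraries lie below the Lactobacillus libraries for Tcf7l1 and above them for Sfrp1, while the groups overlap for Rspo1.

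The R-spondin receptors and the ligases they control did not separate the groups. Lgr4, the more broadly expressed receptor, was at 48.4, 70.05, 87.6 and 57.2 FPKM in K1 to K4 and at 68.1, 73.3, 112 and 107.9 in L1 to L4. L3 and L4 were highest, but K3 exceeded L1 and L2, and the log2 difference was -0.45 (SE 0.22, limma unadjusted p 0.0714). Lgr5 was at 5.71, 4.78, 5.15 and 3.02 FPKM in K1 to K4 and at 4.44, 6.68, 4.64 and 8.65 in L1 to L4, again with K4 lowest and L4 highest. Its log2 difference was -0.34 (SE 0.25). The ligase Rnf43 differed by -0.08 (SE 0.16) and Znrf3 by -0.05 (SE 0.15) on the log2 scale, so all 4 values of this role were below 0 and none reached an unadjusted p of 0.05.

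The core of the pathway was the steadiest part. Ctnnb1, which encodes β-catenin, had means of 367 ± 31.1 FPKM with Klebsiella and 353 ± 26.2 FPKM with Lactobacillus (SD, n = 4 each). Its log2 difference was 0.05 (SE 0.09). Apc, the scaffold of the destruction complex, had means of 33.1 ± 2.58 and 30.5 ± 2.25 FPKM (SD, n = 4 each) and a log2 difference of 0.11 (SE 0.09). The ratio of the highest to the lowest library was 1.25 for Ctnnb1 and 1.25 for Apc, the smallest of the 29 genes. β-catenin is controlled mainly through the stability of the protein, which RNA does not show.

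Among the TCF/LEF factors, Tcf7l1 had the highest mean FPKM and was lower in every Klebsiella library than in any Lactobacillus library. It was at 51.6, 43.4, 39.5 and 45.4 FPKM in K1 to K4 (854 to 1104 reads) and at 64.5, 53.2, 73.1 and 80.7 in L1 to L4 (1369 to 2093 reads). The gap between the groups was narrow, between K1 and L2. The log2 difference was -0.58 (SE 0.14, limma unadjusted p 0.00244, adjusted p 0.774). Without K3 and L2 it was -0.63, and without K2 and L3, the libraries with high Ctrb1, -0.52. Over 23 alternatives the difference stayed below 0, with adjusted p from 0.36 to 0.984, and it was -0.38 with log2 Hoxd13 and -0.28 (limma unadjusted p 0.0636) with log2 Hoxb13 as a covariate. The adipocyte sum was likewise lower in every Klebsiella library, and in the Lactobacillus group its order, L4, L3, L1 and L2 from high to low, was that of Tcf7l1. In the Klebsiella group K1 was lowest in the adipocyte sum and highest in Tcf7l1. The part of fat tissue in the levels of Tcf7l1 and Rspo1 was not tested. Tcf7l1 was singled out with these results known, so its p-value supports no claim by itself.

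Tcf7l1 lies on chromosome 6 from 72626378 to 72789254 on the minus strand of GRCm38 (GENCODE M21), and exons of Gm15401 on the plus strand overlap its exons. Gm15401 was at 7.57, 7.06, 6.18 and 9.25 FPKM in K1 to K4 and at 10.5, 9.12, 13.8 and 19.0 in L1 to L4. It was lowest in K3 and highest in L4, as was Tcf7l1. The sources used here do not say whether reads were counted by strand, and without strand the reads in the stretch where the exons overlap cannot be told apart. Of the 32 genes, 23 have no exon overlap with another annotated gene.

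The other TCF/LEF genes overlapped between the groups. Tcf7l2, the main TCF of intestinal epithelium, was at 20.7, 33.7, 28.1 and 24.7 FPKM in K1 to K4 and at 28.8, 27.0, 28.2 and 42.8 in L1 to L4. L4 was far above the other Lactobacillus libraries, and the log2 difference was -0.23 (SE 0.19). Tcf7, which is also a T cell factor, was at 6.25, 4.72, 3.29 and 5.58 FPKM in K1 to K4 and at 4.33, 6.09, 4.15 and 5.12 in L1 to L4, and the log2 difference was -0.01 (SE 0.20). Lef1, likewise known from lymphocytes, was at 0.234, 0.320, 0.126 and 0.236 FPKM in K1 to K4 and at 0.102, 0.559, 0.209 and 0.234 in L1 to L4. Its highest library, L2, was also the highest in the summed FPKM of 7 T cell markers, 33.8 against 12.5 to 18.3 in the others. The part of T cells in the Lef1 level was not tested.

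The targets of the pathway went both ways. Axin2, the feedback inhibitor that most tissues use to report Wnt activity, was at 26.2, 27.1, 27.5 and 24.7 FPKM in K1 to K4 and at 27.4, 32.5, 28.3 and 33.2 in L1 to L4. L2, L3 and L4 were above all Klebsiella libraries and L1 just below K3, and the log2 difference was -0.20 (SE 0.09, limma unadjusted p 0.0602). Ascl2, a transcription factor of crypt stem cells, was at 4.76, 3.91, 5.27 and 3.19 FPKM in K1 to K4 and at 3.92, 5.85, 7.001 and 8.72 in L1 to L4. As with Lgr5, K4 was lowest and L4 highest, and the log2 difference was -0.49 (SE 0.24, limma unadjusted p 0.071). L1 was the lowest Lactobacillus library for Ascl2, Lgr5 and Axin2. Without it, 7 of the 29 genes were at an unadjusted p under 0.05, Axin2, Ascl2 and Lgr4 among them, none past the threshold. Those 7 were 24.1% of the 29, against 10.3% with all libraries. The share over all genes tested was then 11.9%, against 6.07% with all libraries.

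On the other side, Nkd1, a feedback inhibitor that acts on Dishevelled, was at 9.59 ± 2.97 against 7.58 ± 1.61 FPKM, and the adhesion receptor Cd44 at 21.9 ± 5.59 against 18.4 ± 4.22 FPKM (SD, n = 4 each). Ephb2 and Ephb3 are receptors that place cells along the crypt, and they differed by 0.17 (SE 0.15) and -0.14 (SE 0.12) on the log2 scale. Their ligand Efnb1, which is higher away from the crypt base, was at 93.3, 107.7, 88.5 and 82.7 FPKM in K1 to K4 and at 108.0, 76.7, 80.5 and 66.9 in L1 to L4. L1 was highest and L4 lowest, so the groups overlapped, and the log2 difference was 0.18 (SE 0.15). Sox9, a factor of stem and Paneth cells, differed by 0.07 (SE 0.16), Tnfrsf19 (Troy), a receptor of crypt base cells, by 0.15 (SE 0.22) and Cdca7, a chromatin factor of cycling crypt cells, by -0.16 (SE 0.21). None of these 8 genes reached an unadjusted p of 0.05.

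Myc varied most between libraries among the targets, and not by group. This proliferation factor was at 57.8, 23.8, 19.4 and 79.9 FPKM in K1 to K4 and at 50.2, 28.2, 21.9 and 17.4 in L1 to L4. K1, K4 and L1 stood above the others, and the log2 difference was 0.49 (SE 0.48). The summed FPKM of 10 proliferation markers was highest in the same 3 libraries, at 630 in K1, 645 in K4 and 678 in L1. In the other libraries the sum was 312 to 555. Taken singly, only Ccnb1, Bub1 and Mcm5 were highest in K1, K4 and L1. L3 was above K1 for Mki67, Top2a and Cdk1, K2 above K4 for Plk1, Mcm2 and Mcm6, and L2 above K4 for Pcna. Of 6 markers of crypt secretory cells, Ang4, an antimicrobial protein, was at 1550, 1935 and 1732 FPKM in K1, K4 and L1 and at 79.0 to 515 in the others, and was chosen after its values were seen. The other markers did not share that pattern. Reg4 in K4, at 600.2 FPKM, was below L3 and L4, and Lyz1 and Mmp7 were highest in L2. Lgr5, Ascl2 and Axin2 were not higher in these libraries: K4 was lowest for all 3.

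The remaining stem cell markers did not separate the groups. Smoc2, a matrix protein of Lgr5 cells, was at 10.9 to 14.5 FPKM in Klebsiella and 11.8 to 14.9 FPKM in Lactobacillus recipients. Lrig1, a growth factor receptor inhibitor that marks crypt base cells, was at 74.02 ± 17.9 against 73.7 ± 9.22 FPKM (SD, n = 4 each). Rgmb, a BMP co-receptor, was at 27.9 ± 10.1 against 32.2 ± 5.72 FPKM and Msi1, an RNA-binding protein, at 1.94 ± 0.495 against 2.14 ± 0.573 FPKM (SD, n = 4 each). All 4 log2 differences lay between -0.25 and -0.02, and the largest, that of Rgmb, had an SE of 0.24.

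The repressor was then contrasted with the targets. Of 14 genes taken as targets (Axin2, Lgr5, Ascl2, Rnf43, Znrf3, Notum, Nkd1, Sox9, Ephb2, Ephb3, Myc, Cd44, Tnfrsf19 and Cdca7), 13 were tested, with 6 log2 differences above 0 and 7 below. Their median was -0.05, against -0.02 for all genes tested and -0.58 for Tcf7l1. Each gene was centred on its mean over the 8 libraries, and the median of the targets was subtracted from Tcf7l1 in each library. The result was -0.19, -0.32, -0.46 and -0.15 in K1 to K4 and 0.17, -0.08, 0.41 and 0.58 in L1 to L4 on the log2 scale. All Klebsiella libraries were below all Lactobacillus libraries, with group means of -0.28 ± 0.14 and 0.27 ± 0.29 (SD, n = 4 each). The median of the targets itself overlapped, at -0.12 to 0.10 in Klebsiella and -0.03 to 0.06 in Lactobacillus recipients. The separation of the contrast restates that of Tcf7l1, and the median of genes that go both ways says little of any 1 target. With log2 Hoxb13 as a covariate the contrast of -0.55 was -0.26. No p is given, since the members of the contrast were chosen with these results known.

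**Figure D4:**
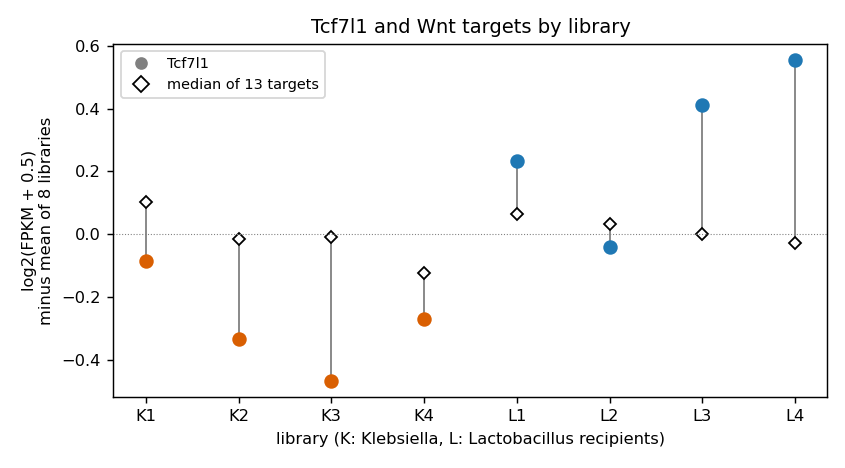
Log2(FPKM + 0.5) of Tcf7l1 (filled circles, orange for Klebsiella and blue for Lactobacillus) and the median of the 13 tested targets (open diamonds) in each library, each gene centred on its mean over the 8 libraries. The diamonds stay between -0.12 and 0.10, and Tcf7l1 runs from -0.47 in K3 to 0.55 in L4.

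Co-repressors of TCF factors and proteins related to them were looked at next. Of 9 tested (Tle1 to Tle4, Aes, Hdac1, Hdac2, Ctbp1 and Ctbp2), 7 had a log2 difference above 0, and the median was 0.13. Of all 16865 genes tested, 7830 were above 0, and the median was -0.02. The smallest adjusted p of the 9 in limma was 0.774, and a relation to the level of Tcf7l1 was not tested. Tle1, a Groucho protein, was the only one at an unadjusted p under 0.05 (11.1% of the 9, against 6.07% of all genes tested). It was at 31.2 ± 4.58 against 24.5 ± 4.08 FPKM (SD, n = 4 each; log2 difference 0.34, SE 0.15, limma unadjusted p 0.0459, adjusted p 0.774). The groups overlapped, since L1 with 29.8 FPKM was above K1 with 24.6, and the difference was 0.10 with log2 Hoxb13 and 0.15 with log2 Hoxd13 as a covariate.

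Of 85 other genes of the pathway, 65 were tested, 38 with a positive and 27 with a negative log2 difference and a median of 0.01. At an unadjusted p under 0.05, 4 were higher in Klebsiella recipients and 0 lower, or 6.15% against 6.07% of all genes tested, and 0 passed the threshold. Besides Tle1 they were Tnks2, Ror2 and Fzd9. Tnks2, a tankyrase that marks Axin for destruction, was at 118, 109, 105 and 121 FPKM in K1 to K4 and at 99.4, 98.9, 95.5 and 97.8 in L1 to L4. The groups did not overlap for 2 of the 65, Tnks2 and Ror2 (3.08%, against 2.99% of all genes tested). The log2 difference of Tnks2 was small, at 0.21 (SE 0.07, limma unadjusted p 0.0197, adjusted p 0.774). Ror2, a receptor for Wnt5a, was at 5.18, 7.497, 8.15 and 5.14 FPKM in K1 to K4 and at 5.13, 4.32, 4.97 and 3.87 in L1 to L4. The gap between its groups was very narrow, between K4 and L1, and K2 and K3 were highest. The log2 difference of Ror2 was 0.44 (SE 0.18), and 0.18 once log2 Hoxd13 was a covariate. Fzd9, a Wnt receptor, had a log2 difference of 1.08 (SE 0.47), with 5.83 FPKM in K2 against 1.71 to 2.35 in the other Klebsiella libraries. Without K2 it was 0.74, and without the pair with high Ctrb1 0.52.

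Tcf7l1 varied with some markers of position along the gut. Hoxb13, a homeobox gene that marks the distal gut, measured 144, 107, 81.0 and 114 FPKM in K1 to K4 and at 156, 119, 237 and 182 in L1 to L4. Within the Klebsiella group the libraries fell in the same order for Tcf7l1 and Hoxb13, K1, K4, K2 and K3 from high to low. Within the Lactobacillus group L1 and L2 came last in that order for both genes, and L3 and L4 were exchanged. Over the 8 libraries, Pearson's r of the log2 values was 0.917 (exact permutation p 0.00169, adjusted p 0.0059) and Spearman's rho 0.952 (exact permutation p 0.00114, adjusted p 0.00799). Without the 2 libraries farthest from the median of Hoxb13, r was 0.939 (exact permutation p 0.0111, n = 6).

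Cdx2, a homeobox gene of intestinal epithelium, ran the opposite way. It was at 46.4, 60.5, 93.8 and 60.5 FPKM in K1 to K4 and at 44.4, 62.4, 30.3 and 24.5 in L1 to L4. Pearson's r with Tcf7l1 was -0.943 (exact permutation p 0.000843, adjusted p 0.0059) and Spearman's rho -0.857 (exact permutation p 0.0107, adjusted p 0.0375). Without the 2 libraries farthest from the median of Cdx2, r was -0.877 (exact permutation p 0.0472, n = 6). The tests were two-sided and were made for 7 position markers after the order of Hoxb13 had been seen, with adjustment over the 7. Hoxa13 and Hoxd10 gave r of 0.406 and 0.705, with adjusted exact permutation p of 0.37 and 0.0998. Hoxd13 gave r of 0.807 (adjusted exact permutation p 0.0269) and Spearman's rho of 0.69 (adjusted exact permutation p 0.121). Without the 2 libraries farthest from the median of Hoxd13, r was 0.598 (exact permutation p 0.222, n = 6). No r is given for Hoxb6, whose libraries fall into separate sets.

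The position markers also differed between the groups. The log2 difference of Hoxb13 was -0.62 (SE 0.23, limma unadjusted p 0.0245, adjusted p 0.774) and that of Cdx2 was 0.73 (SE 0.30, limma unadjusted p 0.0395, adjusted p 0.774). Hoxd13 was at 46.3, 3.25, 2.20 and 8.03 FPKM in K1 to K4 and at 43.9, 19.1, 27.3 and 39.2 in L1 to L4. Since Tcf7l1, Hoxb13, Hoxd13 and Cdx2 all differ in mean between the groups, a permutation over all 8 libraries also counts that difference. Hoxd13 was not examined within groups. With each gene centred on its group's mean and permutations within groups only, r was 0.867 for Hoxb13 (exact permutation p 0.0208, n = 8) and -0.978 for Cdx2 (exact permutation p 0.00174, n = 8). These 2 relations were chosen as the strongest of the 7. Adjusted over the 2 only, the exact permutation p were 0.0208 and 0.00348, and this adjustment does not count the choice. The part of position along the gut in the level of Tcf7l1 was not tested beyond the covariates.

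**Figure D5:**
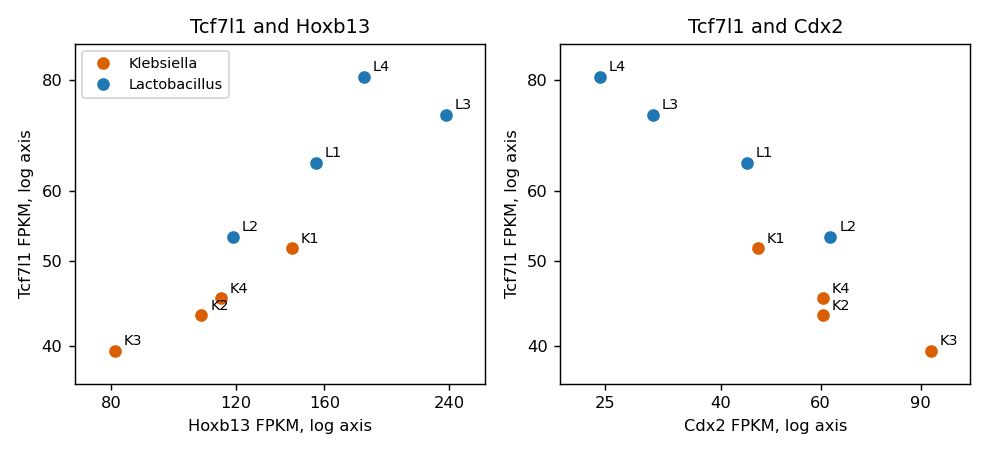
FPKM of Tcf7l1 against Hoxb13 (left) and Cdx2 (right) on log axes, 1 point per library, Klebsiella in orange and Lactobacillus in blue. Tcf7l1 is higher where Hoxb13 is higher (r = 0.917) and lower where Cdx2 is higher (r = -0.943), and K3 and L4 lie at the low and high ends of Tcf7l1.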

How the data were processed

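Total RNA of frozen intestine was sequenced after an Illumina TruSeq preparation, per the labels' protocols. The submitters' processing notes name DESeq2 1.10.1, HTSeq 0.6.0, STAR 2.5.1b and CASAVA, but give no role or order. No genome build is stated in the sources used here. FPKM were deposited by the authors for 49585 identifiers, of which 49326 had a symbol in GENCODE M21, and so were, per the file headers, the number of filtered reads and the percent of G and C bases per library, which entered no test. In each gene the FPKM were whole multiples of the value of 1 read (tolerance 1e-12, relative). This held for 100.0% of the 26963 genes seen in 2 or more libraries, and the read numbers quoted are these multiples.

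Limma 3.58.1 in R 4.3.3, with a mean-variance trend, was run on log2(FPKM + 0.5) of the 16865 genes whose mean reached 0.5 FPKM. Tests were two-sided, with Benjamini-Hochberg adjustment over those genes and a threshold of 0.05. Changes of low genes are understated by the pseudocount. The script was tested on simulated data. Single relations over libraries used exact permutation tests (scipy 1.17.1). By rule, values per library were given for the TCF/LEF genes, for genes of the 32 at an unadjusted p under 0.05, with groups that do not overlap or with the highest or lowest mean, and for at least 1 gene of each role. Other pathway genes at that p were named, at most 8. Further genes with values per library were picked with their values in view. The genes, lists and alternatives were chosen with earlier results of these data known. Alternatives, 23 in all, were other pseudocounts, filters and scalings, covariates, array weights, a block on mouse number, voom and left-out libraries. The covariate log2 Hoxb13 and the relations with position markers were chosen after seeing the data, and 1 of these relations is not reported here.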

Additional observations from a re-analysis of the deposited data

Results flagged for a closer look

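Each tested gene was checked for a library far from the other 3 of its group (by Dixon's critical value for 4 samples), in 58 groups, and 2 stood out; chance flags about 1 in 20 groups. Rnf43 was at 13.5 FPKM in L1, against 20.4 to 21.6 in the other Lactobacillus libraries. Tcf7l2 was at 42.8 FPKM in L4, against 27.0 to 28.8 in the other Lactobacillus libraries.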

How the results depend on the processing

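Over 23 alternatives, 0 genes were called in each. Tcf7l1 stayed below 0 (-0.69 to -0.28), Rspo1 below 0 (-1.45 to -0.57 over the 22 in which it was tested) and Sfrp1 above 0 (0.17 to 0.47). Among the 29 genes, those at an unadjusted p under 0.05 numbered 5 with array weights (17.2%, against 10.8% of all genes tested) and 2 to 7 with each library left out. The 7 were without L1 (24.1%, against 11.9% of all genes tested); the cause was not tested. Over all genes the share with a library left out ran from 3.36% to 11.9%. The median of the targets was -0.045 in the main analysis, 0.064 with log2 Hoxd13 as a covariate (the cause was not tested) and -0.087 to 0.022 with each library left out. The contrast of Tcf7l1 with the targets was -0.26 with log2 Hoxb13 as a covariate, an alternative chosen after seeing the data, and the cause was not tested. Deviations of same-numbered mice from their group means correlated at 0.189, -0.1, -0.059 and -0.159. Differently numbered mice were not set beside them, so these values do not decide whether the numbers pair the mice. With the mouse number as a replicate block, 0 genes were called and the difference of Tcf7l1 was -0.58. In that setting 4 of the 29 were at an unadjusted p under 0.05 in limma (13.8%, against 6.09% of all genes tested). Of the 29 genes, 17 kept their sign under every alternative run. The r of Tcf7l1 with Hoxb13 and with Cdx2 kept its sign and an exact permutation p under 0.05 with other pseudocounts, 3 rescalings, each library left out and values centred within groups. These p were not adjusted for the choice of the relations. Genes with few reads, such as Rspo1, Lef1, Notum and Olfm4, are limited by depth.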
